A study of Mus musculus with 23 samples.

Results

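A set of 69 mouse genes carried a strong signal in wild-type spermatogonia, the stem and progenitor cells at the base of the seminiferous tubule, and a weak one in the spermatogonia of Spo11-/- mice. Microarray intensities were put on the scale log2(intensity + 1), and each gene was read by its brightest probe set, judged by the average of the 20 wild-type arrays among probe sets that name a single gene. Genes were kept where the wild-type spermatogonia mean lay at least 4 above the Spo11-/- spermatogonia array, at least 1.5 above the wild-type pre-leptotene mean, and at or above the round spermatid mean. The rule kept 69 of 18193 genes. Akap4, Prm1, Prm2, Tnp1, Tnp2, Smcp and Odf1, whose RNA is abundant in elongating spermatids, were left out by name, and 3 of these 7 (Akap4, Smcp and Odf1) met all 3 thresholds. Measured values in wild-type and Spo11-/- spermatogonia, wild-type pre-leptotene and wild-type round spermatids therefore chose the members: the genes were selected on those values, which are given below as a description.

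The series holds 23 arrays of RNA from testis cells stained with the DNA dye Hoechst and sorted by flow cytometry into stages of spermatogenesis. Spo11-/- males aged 10 to 16 weeks gave 1 array each of spermatogonia, pre-leptotene and leptotene/zygotene cells, each made by combining 2 collections. The design text gives totals of 4 and 3 animals without saying plainly which pool each belongs to. Their strain is not given in the sources used here, nor whether the 3 pools share animals. The 20 wild-type arrays came from C57BL6xDBA2J F1 males of the same age range, with 4 arrays of spermatogonia, 3 of pre-leptotene, 3 of leptotene/zygotene, 1 of early pachytene, 2 of mid-pachytene, 1 of late pachytene, 2 of diplotene and 4 of round spermatids. Labels call the wild-type arrays of a fraction biological replicates. Spo11 makes the DNA breaks that begin meiotic recombination, and testes of mice without it are known to lack the cells that follow meiotic arrest, spermatids among them.

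After meiosis a round spermatid elongates, replaces its histones with transition proteins and then protamines, builds a tail and sheds most of its cytoplasm. Transcription stops as the nucleus condenses, so many spermatid RNAs are made early and kept for later translation. Such RNAs encode sperm isoforms of metabolic enzymes, chromatin proteins, kinases, chaperones and parts of the ubiquitin system. The testis also holds macrophages and stromal cells outside and around the tubule, which carry lysozymes, class II antigen-presenting molecules and matrix proteins.

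Array medians of the probe set intensities lay between 10.63 and 12.56, and 44.2% to 47.3% of probe sets reached log2 4, the level taken here as the limit of a clear signal. Of 16 genes on a spermatogonia marker list, 13 reached log2 4 in the Spo11-/- spermatogonia array and 15 or 16 in each wild-type one, and the list's median was 8.43 in the Spo11-/- array, against 9.29, 8.24, 8.38 and 10.06 in wild-type arrays 1 to 4. The 7 genes left out by name had a median of 2.97 (log2) in the Spo11-/- spermatogonia array, against 14.70, 14.89, 13.26 and 12.39 in the wild-type arrays. Both marker types were thus high in the wild-type spermatogonia fraction. In RNA from many cells, fewer cells of a type and less RNA per cell cannot be told apart. The number of arrays limits the precision of every value below.

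The first threshold alone was met by 386 genes (2.12%), the pre-leptotene threshold by 656 (3.61%) and the round spermatid threshold by 7615 (41.9%). The first and second together were met by 328 genes, and 256 of those lay below the round spermatid mean and so are not members. Members nearest above the Spo11-/- threshold were Col3a1 and Ccdc57 with a log2 difference of 4.19 and Nr4a1 with 4.24, and the genes that failed it alone by least were Col1a2 with 3.89, Gm34703 with 3.80 and Ccl4 with 3.79. At the pre-leptotene threshold, Nr4a1 had a log2 difference of 1.59, Ccdc57 2.10 and Tgfbi 2.12, while Mgp with 1.23, Ifitm3 with 1.20 and Sparcl1 with 1.09 lay just outside. At the round spermatid threshold, Habp4 had a log2 difference of 0.03, Dcun1d1 0.06 and H2bl1 0.11, while 2810408A11Rik and Tctex1d1 with -0.02 and H1f7 with -0.04 lay just outside. As many as 254 genes failed that threshold alone.

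The label of the set, spermatid-type RNA, was borne out for only part of it. The Spo11-/- pre-leptotene array, which the rule did not use, divided the members into 2 groups with a gap between them. In 51 members its log2 level differed from the Spo11-/- spermatogonia array by -2.19 to 1.03, and in the other 18 it was higher by 2.75 to 8.84. For 59 of the 69 the Spo11-/- spermatogonia level was itself under log2 4, so differences from it are described and not read as exact. Across all genes, 757 of 18193 (4.16%) were higher by at least 2 in that pair of arrays. The division was drawn at 2 after these values were seen, and it serves only to order the description. The 51 genes are called the Oaz3 group here, after the member with the highest wild-type spermatogonia mean, and the 18 are called the Lyz2 group, after a lysozyme of macrophages and neutrophils.

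**Figure D1:**
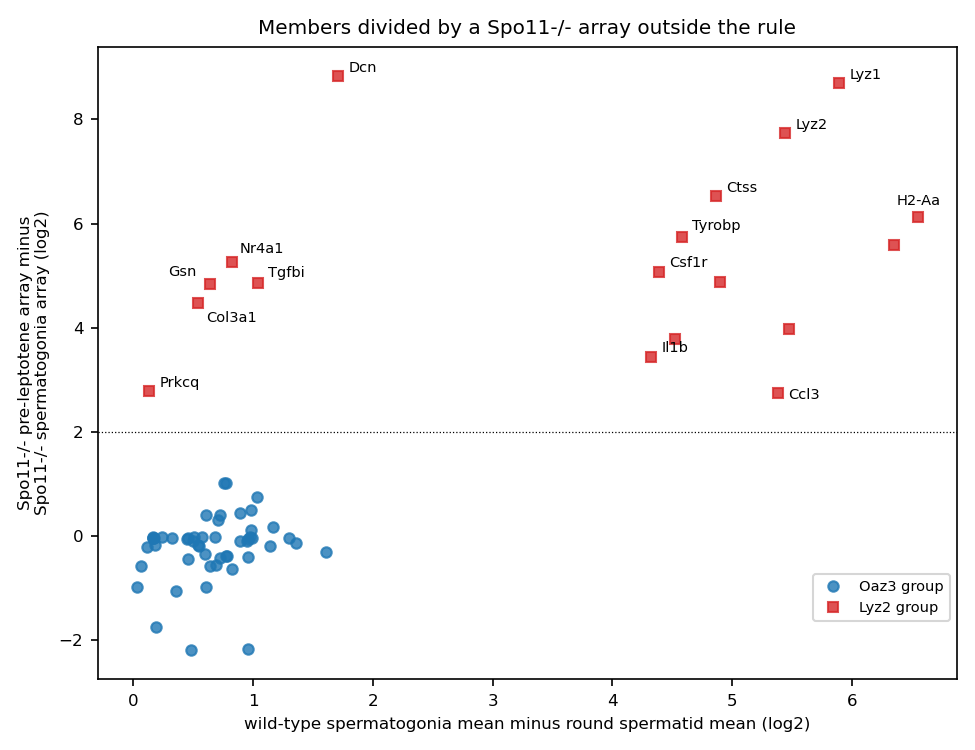
Each point is 1 member, 51 of the Oaz3 group and 18 of the Lyz2 group, with the wild-type spermatogonia minus round spermatid difference (log2) on the horizontal axis and the Spo11-/- pre-leptotene minus Spo11-/- spermatogonia difference (log2) on the vertical axis. The dotted line marks a difference of 2, and the Lyz2 group lies above it, from 2.75 to 8.84.

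Gene lists were drawn up for this description with earlier results of these data known. The groups were also drawn after their values were seen, so the overlaps below are a description and not further support. Of 183 genes measured from 10 lists of spermatid and sperm functions, 11 were members, and all 11 fell in the Oaz3 group (H2al2a, H2bl1, Oaz3, Spatc1, Spata18, Tssk6, Cabs1, Gapdhs, Ubqlnl, Spem1 and Lelp1). Of 76 genes measured from lists of other cell types, 7 were members, and all 7 fell in the Lyz2 group (Lyz2, Csf1r, Tyrobp, Cd74, Ctss, Dcn and Col3a1). No member came from the lists of acrosome genes (31 measured), sperm ion channels (11), the mitochondrial sheath (10) or spermatid transcription and translation control (17), and none of the 16 spermatogonia markers met the Spo11-/- threshold. The function lists contain genes that rise at different steps of spermatid development, and 8 of the 31 acrosome genes met the Spo11-/- threshold, of which 4 also met the pre-leptotene threshold and lay below round spermatids.

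**Figure D2:**
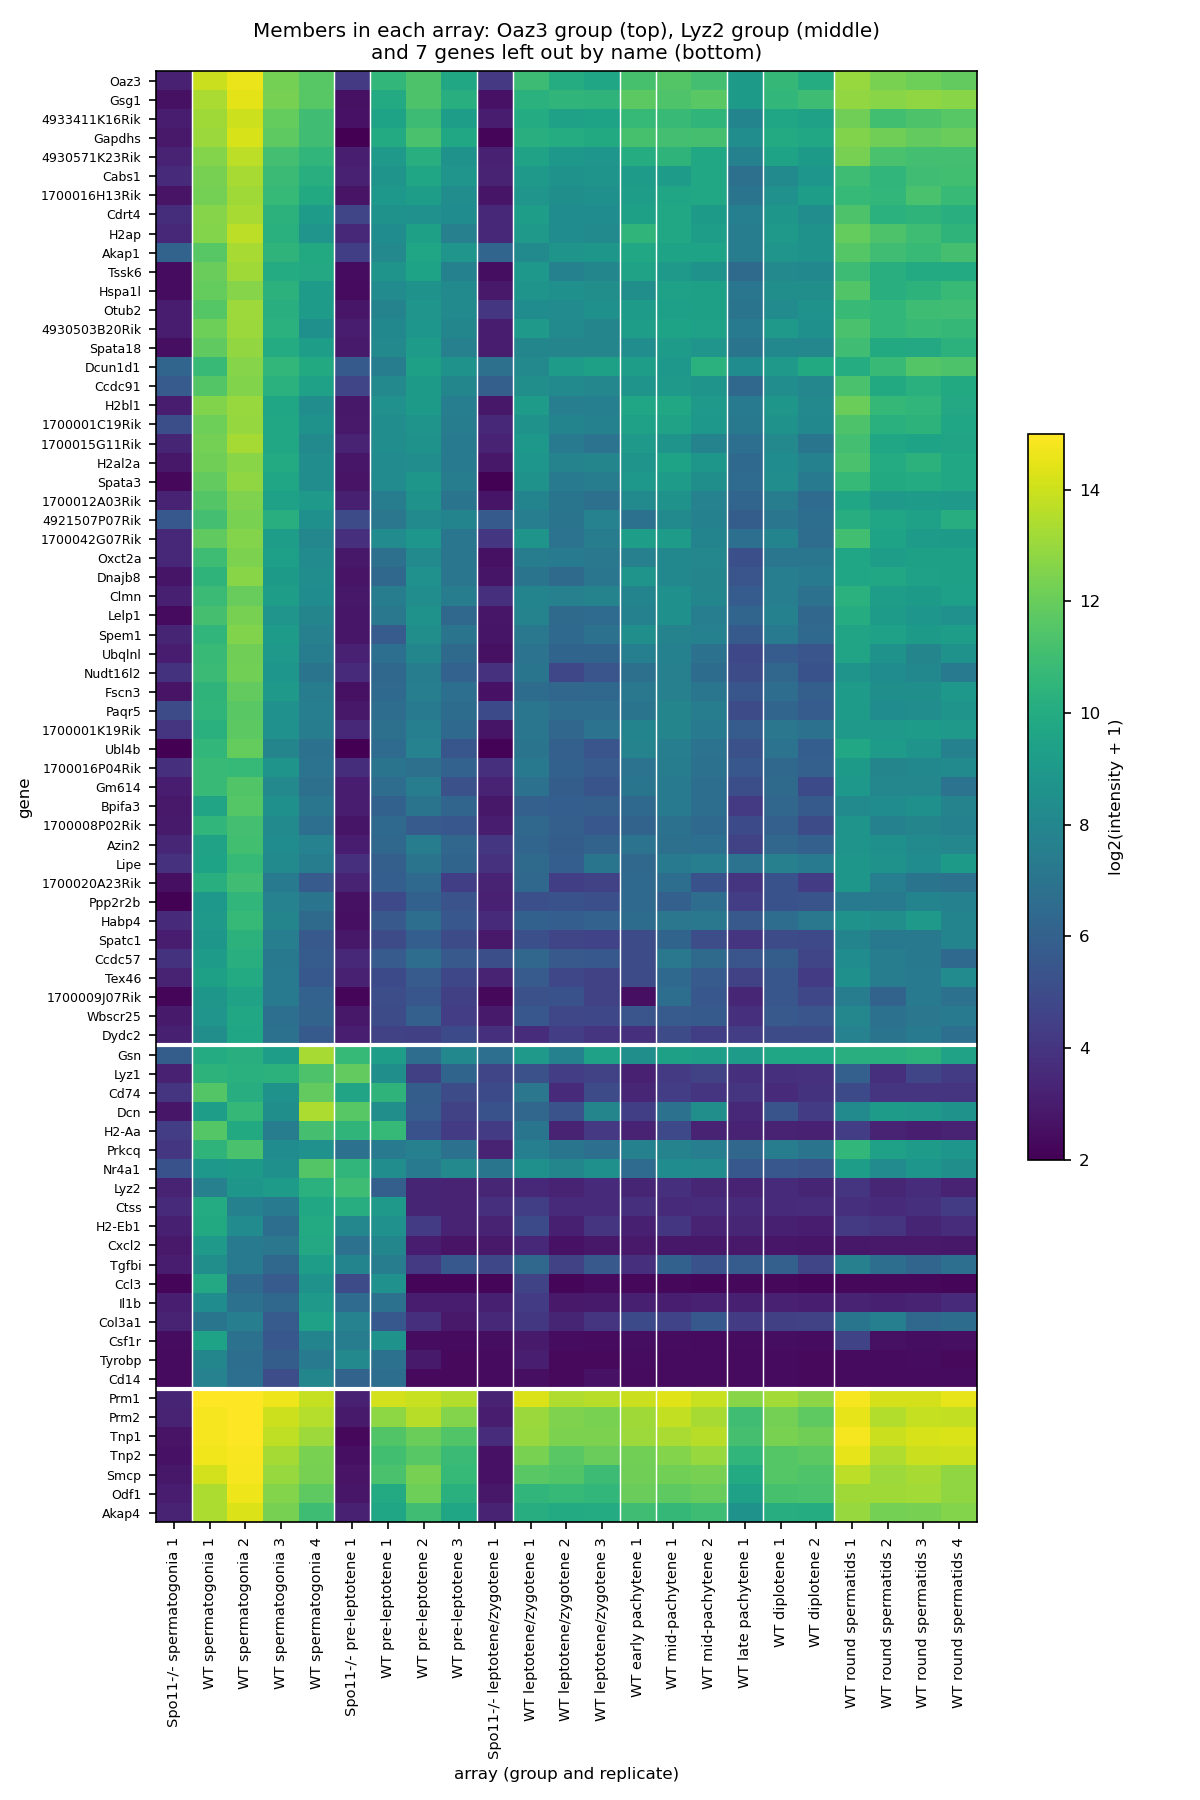
Rows are the 51 genes of the Oaz3 group, the 18 of the Lyz2 group and the 7 genes left out by name, each sorted by wild-type spermatogonia mean, and columns are the 23 arrays in stage order with the Spo11-/- array of a stage left of its wild-type arrays. Colour gives log2(intensity + 1); the Oaz3 group is bright in wild-type spermatogonia and round spermatids and, for 39 of its 51 genes, below log2 4 in all 3 Spo11-/- arrays, whereas the Lyz2 group is bright in wild-type spermatogonia, the Spo11-/- pre-leptotene array and, for most genes, wild-type pre-leptotene array 1.

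In the Oaz3 group, the median log2 level over the 51 genes was 10.25 in wild-type spermatogonia, 7.72 in pre-leptotene, 7.39 in leptotene/zygotene, 8.18 in early pachytene, 8.06 in mid-pachytene, 6.22 in late pachytene, 7.19 in diplotene and 9.51 in round spermatids. The late pachytene array was the lowest wild-type fraction for 47 of the 51. In the Spo11-/- arrays the same medians were 3.12 in spermatogonia, 2.94 in pre-leptotene and 3.17 in leptotene/zygotene, under the log2 4 limit, and 39 of the 51 stayed below 4 in all 3 (38.4% of all genes did). The Spo11-/- pre-leptotene array lay below every wild-type pre-leptotene array for 51 of 51 (36.5% of all genes). The rule used Spo11-/- spermatogonia and wild-type pre-leptotene, and the Spo11-/- pre-leptotene array was used to draw the group. Nothing is therefore read from either of these Spo11-/- counts. The group median thus stayed above the limit in every wild-type fraction, with its lowest value in the single late pachytene array. Its highest values were in the first and last fractions, which the rule used, and the rule required the spermatogonia mean to reach that of round spermatids.

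The chromatin members were H2al2a and H2bl1, histone variants of the condensing spermatid nucleus, and H2ap, named for its relation to histone H2A. H2ap had log2 levels of 3.48 in spermatogonia, 3.45 in pre-leptotene and 3.51 in leptotene/zygotene of Spo11-/- mice. In wild type, H2ap had 12.61, 13.70, 10.25 and 8.78 (log2) in spermatogonia, 8.32, 9.40 and 7.66 in pre-leptotene, 9.05, 8.34 and 8.24 in leptotene/zygotene, 10.49 in early pachytene, 9.76 and 9.31 in mid-pachytene, 7.45 in late pachytene, 9.04 and 8.68 in diplotene and 11.91, 11.35, 10.95 and 10.47 in round spermatids. Its spermatogonia arrays 1 and 2 were the brightest of all fractions, and arrays 3 and 4 fell below all 4 round spermatid arrays. H2bl1 had log2 levels of 3.03 in spermatogonia, 2.82 in pre-leptotene and 2.85 in leptotene/zygotene of Spo11-/- mice. In wild type, H2bl1 had 12.55, 12.98, 9.66 and 8.38 (log2) in spermatogonia, 8.56, 9.06 and 7.58 in pre-leptotene, 9.14, 7.56 and 7.59 in leptotene/zygotene, 9.68 in early pachytene, 9.76 and 8.97 in mid-pachytene, 7.35 in late pachytene, 8.86 and 8.11 in diplotene and 12.07, 10.64, 10.58 and 9.84 in round spermatids. The spermatogonia mean of H2bl1 lay 0.11 above its round spermatid mean, a difference far smaller than the spread of the 4 spermatogonia arrays. H2al2a had log2 levels of 2.82 in Spo11-/- spermatogonia, against 12.20, 12.70, 9.93 and 8.37 in the wild-type arrays. Of the 10 chromatin genes measured, 9 met the Spo11-/- threshold, 4 of them among the genes left out by name.

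Metabolism and polyamine genes included the brightest members. Oaz3, the spermatid antizyme that restrains polyamine synthesis, had log2 levels of 3.18 in spermatogonia, 4.21 in pre-leptotene and 4.17 in leptotene/zygotene of Spo11-/- mice. In wild type, Oaz3 had 13.94, 14.60, 12.26 and 11.61 (log2) in spermatogonia, 10.61, 11.35 and 9.81 in pre-leptotene, 10.91, 10.07 and 9.68 in leptotene/zygotene, 11.23 in early pachytene, 11.51 and 11.12 in mid-pachytene, 9.09 in late pachytene, 10.67 and 10.04 in diplotene and 12.97, 12.36, 12.15 and 11.90 in round spermatids. Every wild-type array stood above every Spo11-/- array by more than 4 log2 units, and spermatogonia arrays 1 and 2 exceeded all 4 round spermatid arrays. Gapdhs, the glyceraldehyde-3-phosphate dehydrogenase of sperm glycolysis, had log2 levels of 2.90 in spermatogonia, 1.85 in pre-leptotene and 2.22 in leptotene/zygotene of Spo11-/- mice. In wild type, Gapdhs had 13.07, 14.21, 11.77 and 10.99 (log2) in spermatogonia, 9.95, 11.26 and 9.73 in pre-leptotene, 10.21, 10.07 and 9.92 in leptotene/zygotene, 11.20 in early pachytene, 11.11 and 11.19 in mid-pachytene, 8.35 in late pachytene, 9.94 and 9.82 in diplotene and 12.55, 12.17, 11.86 and 12.03 in round spermatids. Its order of spermatogonia arrays was the same as that of Oaz3, with array 2 brightest and array 4 dimmest. Oxct2a, a testis enzyme of ketone body use, had log2 levels of 3.48 in Spo11-/- spermatogonia, against 10.96, 12.43, 9.33 and 8.29 in the wild-type arrays. Azin2, an antizyme inhibitor, had log2 levels of 3.42 in Spo11-/- spermatogonia, against 9.47, 11.08, 8.30 and 7.75 in the wild-type arrays. Lipe, hormone-sensitive lipase, had log2 levels of 3.83 in Spo11-/- spermatogonia, against 9.54, 10.71, 8.15 and 7.52 in the wild-type arrays. All 3 of these genes kept that order of arrays.

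Kinase, anchoring and calcium-binding members followed the same course. Tssk6, a kinase needed for the condensation of sperm chromatin, had log2 levels of 2.45 in spermatogonia, 2.41 in pre-leptotene and 2.46 in leptotene/zygotene of Spo11-/- mice. In wild type, Tssk6 had 12.01, 13.14, 10.0 and 9.85 (log2) in spermatogonia, 8.75, 9.56 and 7.73 in pre-leptotene, 8.91, 7.73 and 7.96 in leptotene/zygotene, 9.47 in early pachytene, 9.01 and 8.62 in mid-pachytene, 6.5 in late pachytene, 8.10 and 8.09 in diplotene and 10.93, 10.21, 9.95 and 9.94 in round spermatids. Spermatogonia array 3 of Tssk6 lay within the range of its round spermatid arrays, and array 4 just below it. Cabs1, a calcium-binding protein of the sperm tail, had log2 levels of 3.54 in spermatogonia, 3.17 in pre-leptotene and 3.28 in leptotene/zygotene of Spo11-/- mice. In wild type, Cabs1 had 12.32, 13.32, 10.86 and 10.18 (log2) in spermatogonia, 8.74, 9.62 and 8.80 in pre-leptotene, 9.01, 8.67 and 8.75 in leptotene/zygotene, 9.18 in early pachytene, 9.11 and 9.78 in mid-pachytene, 6.78 in late pachytene, 8.20 and 8.84 in diplotene and 10.98, 10.56, 11.0 and 11.04 in round spermatids. Here spermatogonia array 3 lay within the round spermatid range and array 4 below it. Akap1, which tethers protein kinase A to mitochondria, had log2 levels of 6.14 in spermatogonia, 4.40 in pre-leptotene and 6.26 in leptotene/zygotene of Spo11-/- mice. In wild type, Akap1 had 11.63, 13.32, 10.46 and 9.92 (log2) in spermatogonia, 8.12, 9.70 and 8.76 in pre-leptotene, 8.22, 8.72 and 8.89 in leptotene/zygotene, 9.80 in early pachytene, 9.56 and 9.52 in mid-pachytene, 7.44 in late pachytene, 8.80 and 8.62 in diplotene and 11.59, 11.01, 10.78 and 11.16 in round spermatids. Unlike most of the group, Akap1 had a clear signal in all 3 Spo11-/- arrays. Ppp2r2b, a regulatory subunit of protein phosphatase 2A, had log2 levels of 2.10 in Spo11-/- spermatogonia, against 8.95, 10.57, 7.74 and 7.02 in the wild-type arrays.

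Chaperones and ubiquitin-pathway members made up another part of the group. Hspa1l, an HSP70 chaperone of spermatids, had log2 levels of 2.43 in spermatogonia, 2.39 in pre-leptotene and 2.89 in leptotene/zygotene of Spo11-/- mice. In wild type, Hspa1l had 11.95, 12.65, 10.37 and 9.19 (log2) in spermatogonia, 8.28, 8.62 and 8.23 in pre-leptotene, 8.72, 8.50 and 8.44 in leptotene/zygotene, 8.40 in early pachytene, 9.42 and 9.38 in mid-pachytene, 7.12 in late pachytene, 8.41 and 8.44 in diplotene and 11.49, 10.18, 10.42 and 10.79 in round spermatids. Its pre-leptotene, leptotene/zygotene and early pachytene levels lay close together, between 8.23 and 8.72. Dnajb8, an HSP40 co-chaperone, had log2 levels of 2.72 in Spo11-/- spermatogonia, against 10.46, 12.67, 9.08 and 8.37 in the wild-type arrays. For Dnajb8, too, arrays ran in the order 2, 1, 3, 4. Ubqlnl, a ubiquilin relative, had log2 levels of 3.04 in Spo11-/- spermatogonia, against 10.76, 12.17, 9.02 and 7.51 in the wild-type arrays. Ubl4b, a testis ubiquitin-like protein, had log2 levels of 1.94 in Spo11-/- spermatogonia, against 10.60, 11.95, 7.93 and 6.89 in the wild-type arrays, a wild-type range of 5.05 that was among the 3 widest of all members. Otub2, a deubiquitinating enzyme, had log2 levels of 2.97 in Spo11-/- spermatogonia, against 11.57, 13.12, 10.15 and 9.21 in the wild-type arrays. None of these 3 ubiquitin-pathway genes reached log2 4 in Spo11-/- spermatogonia. Dcun1d1, which promotes the attachment of NEDD8 to cullins, was an exception and had log2 levels of 6.26 in spermatogonia, 5.69 in pre-leptotene and 6.78 in leptotene/zygotene of Spo11-/- mice. In wild type, Dcun1d1 had 10.74, 12.65, 10.63 and 9.91 (log2) in spermatogonia, 7.47, 9.39 and 8.62 in pre-leptotene, 8.14, 9.13 and 9.37 in leptotene/zygotene, 9.26 in early pachytene, 8.92 and 10.28 in mid-pachytene, 8.31 in late pachytene, 9.0 and 9.89 in diplotene and 10.05, 10.77, 11.51 and 11.35 in round spermatids. Round spermatid arrays 3 and 4 of Dcun1d1 exceeded 3 of its 4 spermatogonia arrays. Spem1, needed for removal of cytoplasm from the sperm head, had log2 levels of 3.35 in Spo11-/- spermatogonia, against 10.55, 12.56, 9.16 and 7.65 in the wild-type arrays.

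Gsg1, a germ cell protein that binds the testis poly(A) polymerase, had log2 levels of 2.60 in spermatogonia, 2.56 in pre-leptotene and 2.61 in leptotene/zygotene of Spo11-/- mice. In wild type, Gsg1 had 13.37, 14.47, 12.35 and 11.62 (log2) in spermatogonia, 9.97, 11.39 and 10.13 in pre-leptotene, 10.31, 10.52 and 10.43 in leptotene/zygotene, 11.72 in early pachytene, 11.40 and 11.68 in mid-pachytene, 9.09 in late pachytene, 10.60 and 10.95 in diplotene and 12.88, 12.69, 12.84 and 12.70 in round spermatids. Its 4 round spermatid arrays were tightly grouped and stood between spermatogonia arrays 1 and 3. Cdrt4 had log2 levels of 3.69 in spermatogonia, 4.72 in pre-leptotene and 3.45 in leptotene/zygotene of Spo11-/- mice. In wild type, Cdrt4 had 12.66, 13.28, 10.35 and 9.11 (log2) in spermatogonia, 8.66, 8.58 and 8.32 in pre-leptotene, 9.29, 8.32 and 8.31 in leptotene/zygotene, 9.37 in early pachytene, 9.72 and 9.07 in mid-pachytene, 7.60 in late pachytene, 8.87 and 8.37 in diplotene and 11.37, 10.32, 10.48 and 10.15 in round spermatids. The pre-leptotene array was the highest of its Spo11-/- arrays and still lay far below wild type. Habp4, an RNA-binding protein, had log2 levels of 3.53 in spermatogonia, 2.55 in pre-leptotene and 3.55 in leptotene/zygotene of Spo11-/- mice. In wild type, Habp4 had 8.99, 10.70, 7.92 and 6.48 (log2) in spermatogonia, 5.61, 6.72 and 5.52 in pre-leptotene, 6.04, 5.87 and 6.10 in leptotene/zygotene, 6.61 in early pachytene, 7.17 and 7.23 in mid-pachytene, 5.63 in late pachytene, 6.65 and 7.22 in diplotene and 8.65, 8.42, 9.03 and 7.87 in round spermatids. Habp4 met the round spermatid threshold by the smallest margin of any member. Tex46, a testis-expressed gene, had log2 levels of 3.22 in spermatogonia, 3.21 in pre-leptotene and 3.25 in leptotene/zygotene of Spo11-/- mice. In wild type, Tex46 had 9.40, 9.97, 7.33 and 5.57 (log2) in spermatogonia, 4.94, 5.71 and 4.80 in pre-leptotene, 5.71, 4.77 and 4.53 in leptotene/zygotene, 5.04 in early pachytene, 6.46 and 5.73 in mid-pachytene, 4.55 in late pachytene, 5.50 and 4.26 in diplotene and 8.52, 7.50, 7.36 and 8.25 in round spermatids. Its spermatogonia array 4 stood below all 4 round spermatid arrays.

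The remaining Oaz3-group members with gene names were Spata18, which acts in mitochondrial quality control, Spatc1, Lelp1, Spata3, Fscn3 (an actin-bundling fascin of testis), Clmn, Paqr5 (a membrane progestin receptor), Bpifa3, Ccdc57, Ccdc91, Dydc2, Nudt16l2 and Wbscr25. Another 15 carry only clone or predicted names. The brightest of those, 4933411K16Rik, had log2 levels of 3.04 in spermatogonia, 2.65 in pre-leptotene and 3.06 in leptotene/zygotene of Spo11-/- mice. In wild type, 4933411K16Rik had 13.14, 14.01, 11.91 and 11.0 (log2) in spermatogonia, 9.55, 10.89 and 9.31 in pre-leptotene, 9.99, 9.46 and 9.54 in leptotene/zygotene, 10.70 in early pachytene, 10.83 and 10.50 in mid-pachytene, 7.85 in late pachytene, 9.64 and 9.46 in diplotene and 12.20, 11.06, 11.37 and 11.61 in round spermatids. Its spermatogonia arrays 1 and 2 exceeded all round spermatid arrays. 4930571K23Rik had log2 levels of 3.22 in spermatogonia, 3.07 in pre-leptotene and 3.17 in leptotene/zygotene of Spo11-/- mice. In wild type, 4930571K23Rik had 12.57, 13.72, 11.13 and 10.58 (log2) in spermatogonia, 9.05, 10.17 and 8.70 in pre-leptotene, 9.49, 8.93 and 8.81 in leptotene/zygotene, 10.06 in early pachytene, 10.48 and 9.77 in mid-pachytene, 7.70 in late pachytene, 9.54 and 9.09 in diplotene and 12.33, 11.29, 11.14 and 11.10 in round spermatids. Round spermatid array 1 stood apart from the other 3. 1700016H13Rik had log2 levels of 2.69 in spermatogonia, 2.68 in pre-leptotene and 2.72 in leptotene/zygotene of Spo11-/- mice. In wild type, 1700016H13Rik had 12.28, 13.17, 10.69 and 9.90 (log2) in spermatogonia, 8.91, 9.25 and 8.38 in pre-leptotene, 8.77, 8.47 and 8.53 in leptotene/zygotene, 9.25 in early pachytene, 9.70 and 9.79 in mid-pachytene, 7.0 in late pachytene, 8.60 and 9.23 in diplotene and 10.70, 10.59, 11.25 and 10.79 in round spermatids. All 3 of its Spo11-/- arrays read nearly the same level. 4930503B20Rik had log2 levels of 3.01 in spermatogonia, 2.98 in pre-leptotene and 3.02 in leptotene/zygotene of Spo11-/- mice. In wild type, 4930503B20Rik had 12.13, 13.04, 10.32 and 8.52 (log2) in spermatogonia, 8.09, 8.81 and 7.96 in pre-leptotene, 9.0, 8.19 and 7.91 in leptotene/zygotene, 9.30 in early pachytene, 9.54 and 9.46 in mid-pachytene, 7.30 in late pachytene, 8.96 and 8.51 in diplotene and 11.25, 10.62, 10.82 and 10.67 in round spermatids. Its spermatogonia array 4 lay below all 4 round spermatid arrays. Spata3 had log2 levels of 2.29 in spermatogonia, 2.70 in pre-leptotene and 2.08 in leptotene/zygotene of Spo11-/- mice. In wild type, Spata3 had 11.88, 12.84, 9.66 and 8.38 (log2) in spermatogonia, 8.29, 8.87 and 7.47 in pre-leptotene, 8.61, 7.31 and 7.46 in leptotene/zygotene, 8.94 in early pachytene, 9.16 and 8.45 in mid-pachytene, 6.54 in late pachytene, 8.37 and 7.40 in diplotene and 10.71, 9.90, 9.98 and 9.74 in round spermatids. Its wild-type minimum, in late pachytene, still exceeded its Spo11-/- maximum. RefSeq lists 48 of the 51 as protein-coding.

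Promoters of the members were read from RefSeq (build GRCm38.p6) for the 250 bases before the gene start, because transcription of many spermatid genes depends on CREM, an activator that binds the motif TGACGTCA and the shorter TGACG. A window was found for 43 of the 51 Oaz3-group genes and 13 of the 18 Lyz2-group genes. On either strand, TGACGTCA was present in 1 of 43 (2.33%) and 1 of 13 (7.69%), against 478 of 27025 genes (1.77%). TGACG, or CGTCA on the other strand, was present in 9 of 43 (20.9%) and 2 of 13 (15.4%), against 19.8% of all genes, and each TGACGTCA also counts as a TGACG. The TATA box letters TATAAA, read as TTTATA on the opposite strand, were present in 4 of 43 (9.3%) and 3 of 13 (23.1%), against 14.3% of all genes. The windows of the 2 members with the full motif and of Tssk6 and Spata18, both sperm-function members with the short one, are printed 5′ to 3′ on the strand of the gene, with the motif in capitals (for Spata18 it lies on the opposite strand and reads CGTCA). Class II antigen-presentation promoters such as that of H2-Aa are known to carry a related box. These matches are a description of the letters in the windows.
Habp4, chr13:64161616-64161865, + strand: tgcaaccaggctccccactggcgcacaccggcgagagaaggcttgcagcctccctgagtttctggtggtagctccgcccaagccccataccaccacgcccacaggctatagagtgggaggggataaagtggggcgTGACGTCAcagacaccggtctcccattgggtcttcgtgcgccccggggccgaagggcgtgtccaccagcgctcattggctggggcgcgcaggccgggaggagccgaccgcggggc
Tssk6, chr8:69901934-69902183, + strand: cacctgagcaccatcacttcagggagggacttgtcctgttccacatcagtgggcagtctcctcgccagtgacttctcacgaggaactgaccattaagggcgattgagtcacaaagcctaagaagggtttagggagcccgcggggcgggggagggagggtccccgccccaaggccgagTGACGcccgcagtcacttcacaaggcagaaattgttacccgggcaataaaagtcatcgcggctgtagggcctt
Spata18, chr5:73651130-73651379, + strand: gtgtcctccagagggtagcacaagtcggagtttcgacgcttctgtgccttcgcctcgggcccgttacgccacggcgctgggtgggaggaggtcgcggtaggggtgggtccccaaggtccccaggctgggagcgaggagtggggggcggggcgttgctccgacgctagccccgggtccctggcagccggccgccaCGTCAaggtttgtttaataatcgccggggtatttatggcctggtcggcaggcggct
H2-Aa, chr17:34287824-34288073, - strand: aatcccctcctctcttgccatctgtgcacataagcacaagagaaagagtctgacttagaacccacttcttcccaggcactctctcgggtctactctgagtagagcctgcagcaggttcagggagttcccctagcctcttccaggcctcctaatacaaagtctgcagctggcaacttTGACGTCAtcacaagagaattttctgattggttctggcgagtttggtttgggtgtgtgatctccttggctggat

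The 4 wild-type spermatogonia arrays disagreed strongly on the Oaz3 group. The median log2 level of the 51 genes was 10.96 in array 1, 12.48 in array 2, 9.26 in array 3 and 8.29 in array 4, while round spermatid arrays had medians of 9.20 to 10.05. Each gene's range over the spermatogonia arrays was 2.74 to 5.30. Arrays 1 and 2 both exceeded arrays 3 and 4 for 51 of the 51 genes (34.4% of all genes), and 50 had the full order 2, 1, 3, 4, the exception being 1700016P04Rik, with 10.75, 10.70, 8.73 and 6.97 in arrays 1 to 4 (log2). The widest ranges were those of 1700020A23Rik (5.30), Nudt16l2 (5.23) and Ubl4b (5.05). For none of the 51 did every spermatogonia array exceed every round spermatid array (26.8% of all genes), and for 26 every spermatogonia array exceeded every pre-leptotene array (4.39% of all genes). The rule selected on these groups, so nothing is read from either count.

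**Figure D3:**
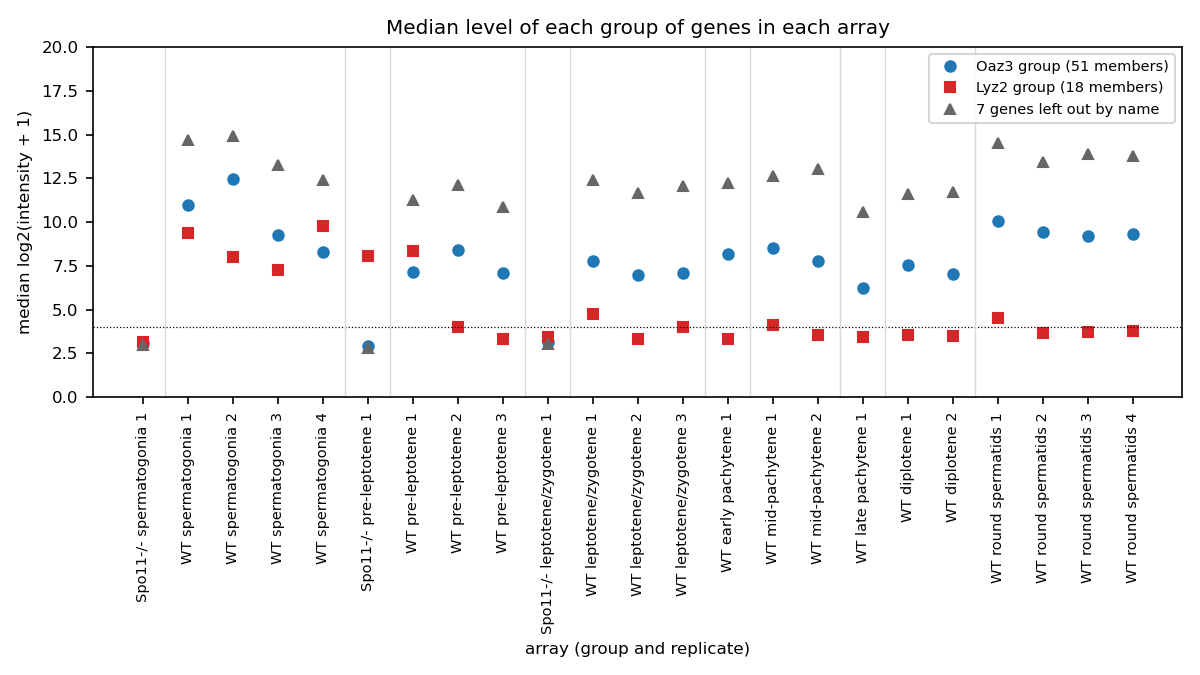
Points are the median log2(intensity + 1) of the Oaz3 group (51 genes), the Lyz2 group (18 genes) and the 7 genes left out by name in each of the 23 arrays, with the Spo11-/- array of a stage left of its wild-type arrays; the dotted line marks log2 4. In wild-type spermatogonia arrays 1 to 4 the Oaz3 group had medians of 10.96, 12.48, 9.26 and 8.29, and the Lyz2 group had 9.40, 7.99, 7.28 and 9.79.

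The 7 genes left out by name had the same order of arrays, with medians of 14.70, 14.89, 13.26 and 12.39 (log2) in arrays 1 to 4. The round spermatid list did not follow it in full, with medians of 6.18, 7.51, 5.77 and 6.69 over its 10 genes, far below the 11.69 to 12.49 of the round spermatid arrays. The spermatogonia list had medians of 9.29, 8.24, 8.38 and 10.06. The part of these differences between arrays in the results was not tested.

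Each spermatogonia array was also left out of the rule in turn and then compared with the genes that the remaining arrays selected. Without array 1 the rule kept 62 genes, and 56 of them met all 3 thresholds in array 1 itself. Without array 2 it kept 42 genes, of which 24 were among the 51 of the Oaz3 group, and 39 of the 42 met all 3 thresholds in array 2. Without array 3 it kept 104, and 16 met them in array 3. Without array 4 it kept 120, and 14 met them in array 4. The full Oaz3 group was kept without array 4, but in array 4 none of its 51 genes reached the round spermatid mean, and their median differed from it by -1.22, against -0.13 over all genes. In array 3, 12 of the 51 reached it, with a median difference of -0.24. By contrast, 14 of the 15 Lyz2-group genes kept without array 4 reached the round spermatid mean in it. In array 1 the round spermatid mean was reached by 42 of the 43 Oaz3-group genes kept without it, and in array 2 by 24 of 24. The counts for the Oaz3 and Lyz2 groups cover genes that the full rule had also kept. The left-out array thus helped to choose them, and nothing is read from the high counts.

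The Lyz2 group had a different course. Of its 18 genes, 12 are described here as leukocyte-type: Lyz2, Csf1r, Tyrobp, Cd74 and Ctss are on the leukocyte list, and Il1b, Cd14, H2-Eb1, Ccl3, Cxcl2, Lyz1 and H2-Aa were placed with them by their known roles after their values were seen. Most had round spermatid means under log2 4, and with those set to 4 the spermatogonia mean stood at least 2.89 (Cd14) to 6.35 (Cd74) above on the log2 scale, values that the rule used. For the same 12 every spermatogonia array exceeded every round spermatid array, which held for 26.8% of all genes. Lyz2, a lysozyme of macrophages and neutrophils, had log2 levels of 3.22 in spermatogonia, 10.96 in pre-leptotene and 3.39 in leptotene/zygotene of Spo11-/- mice. In wild type, Lyz2 had 7.68, 8.89, 9.17 and 10.28 (log2) in spermatogonia, 5.95, 3.35 and 3.31 in pre-leptotene, 3.45, 3.30 and 3.61 in leptotene/zygotene, 3.35 in early pachytene, 3.80 and 3.42 in mid-pachytene, 3.24 in late pachytene, 3.56 and 3.34 in diplotene and 3.97, 3.39, 3.63 and 3.28 in round spermatids. Only the spermatogonia arrays, pre-leptotene array 1 and the Spo11-/- pre-leptotene array carried a clear Lyz2 signal. Lyz1, its neighbour and close copy, had log2 levels of 3.19 in spermatogonia, 11.89 in pre-leptotene and 4.73 in leptotene/zygotene of Spo11-/- mice. In wild type, Lyz1 had 10.39, 10.24, 10.36 and 11.38 (log2) in spermatogonia, 8.47, 4.45 and 6.20 in pre-leptotene, 5.20, 4.35 and 4.58 in leptotene/zygotene, 3.17 in early pachytene, 4.20 and 4.55 in mid-pachytene, 3.80 in late pachytene, 3.78 and 3.86 in diplotene and 6.0, 3.75, 4.73 and 4.32 in round spermatids. The range of Lyz1 over the spermatogonia arrays, 1.14, was the narrowest of all members. Probe sets of such close copies may read each other's RNA, so the 2 lysozyme readings are uncertain.

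Antigen-presentation genes formed a second part of it. H2-Aa, a class II chain, had log2 levels of 4.38 in spermatogonia, 10.50 in pre-leptotene and 4.30 in leptotene/zygotene of Spo11-/- mice. In wild type, H2-Aa had 11.57, 9.90, 7.50 and 11.17 (log2) in spermatogonia, 10.73, 5.29 and 4.30 in pre-leptotene, 7.04, 3.27 and 4.16 in leptotene/zygotene, 3.32 in early pachytene, 4.87 and 3.27 in mid-pachytene, 3.30 in late pachytene, 3.27 and 3.21 in diplotene and 4.38, 3.27, 3.07 and 3.24 in round spermatids. Spermatogonia arrays 1 and 4 were the brightest, and array 3 the dimmest of that fraction. H2-Eb1, a class II beta chain, had log2 levels of 3.12 in spermatogonia, 8.01 in pre-leptotene and 3.32 in leptotene/zygotene of Spo11-/- mice. In wild type, H2-Eb1 had 9.91, 8.27, 6.71 and 9.94 (log2) in spermatogonia, 8.58, 4.32 and 3.29 in pre-leptotene, 4.90, 3.12 and 3.98 in leptotene/zygotene, 3.13 in early pachytene, 4.05 and 3.31 in mid-pachytene, 3.42 in late pachytene, 3.16 and 3.05 in diplotene and 4.22, 4.02, 3.35 and 3.65 in round spermatids. The same arrays 1 and 4 led for H2-Eb1. Cd74, the invariant chain that escorts class II molecules, had log2 levels of 3.97 in spermatogonia, 9.57 in pre-leptotene and 4.90 in leptotene/zygotene of Spo11-/- mice. In wild type, Cd74 had 11.54, 10.10, 8.65 and 11.87 (log2) in spermatogonia, 10.45, 5.83 and 4.95 in pre-leptotene, 7.14, 3.61 and 5.03 in leptotene/zygotene, 3.39 in early pachytene, 4.36 and 3.95 in mid-pachytene, 3.97 in late pachytene, 3.60 and 3.91 in diplotene and 4.90, 3.95, 3.99 and 3.93 in round spermatids. Outside spermatogonia, all 3 genes were brightest among the wild-type arrays in pre-leptotene array 1, and leptotene/zygotene array 1 exceeded the other 2 arrays of its fraction. Ctss, a protease that trims the invariant chain, had log2 levels of 3.59 in spermatogonia, 10.11 in pre-leptotene and 3.78 in leptotene/zygotene of Spo11-/- mice. In wild type, Ctss had 10.01, 7.72, 7.41 and 9.73 (log2) in spermatogonia, 8.99, 3.36 and 3.32 in pre-leptotene, 4.41, 3.57 and 3.59 in leptotene/zygotene, 3.80 in early pachytene, 3.59 and 3.65 in mid-pachytene, 3.60 in late pachytene, 3.60 and 3.67 in diplotene and 3.77, 3.59, 3.80 and 4.27 in round spermatids. Ctss was slightly brighter in the Spo11-/- pre-leptotene array than in any wild-type array.

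Cytokine and receptor genes made up the rest of the leukocyte-type members. Ccl3, a chemokine of activated macrophages, had log2 levels of 2.25 in spermatogonia, 5.0 in pre-leptotene and 2.25 in leptotene/zygotene of Spo11-/- mice. In wild type, Ccl3 had 9.86, 6.43, 5.71 and 8.63 (log2) in spermatogonia, 8.56, 2.24 and 2.21 in pre-leptotene, 4.67, 2.17 and 2.37 in leptotene/zygotene, 2.29 in early pachytene, 2.27 and 2.25 in mid-pachytene, 2.29 in late pachytene, 2.28 and 2.22 in diplotene and 2.28, 2.27, 2.30 and 2.25 in round spermatids. The Spo11-/- pre-leptotene level of Ccl3 lay below all 4 wild-type spermatogonia arrays. Cxcl2, a neutrophil-attracting chemokine, had log2 levels of 2.87 in spermatogonia, 6.86 in pre-leptotene and 2.88 in leptotene/zygotene of Spo11-/- mice. In wild type, Cxcl2 had 9.04, 7.32, 7.16 and 9.85 (log2) in spermatogonia, 7.95, 3.01 and 2.70 in pre-leptotene, 3.43, 2.64 and 2.82 in leptotene/zygotene, 2.90 in early pachytene, 2.86 and 2.85 in mid-pachytene, 2.89 in late pachytene, 2.80 and 2.72 in diplotene and 2.86, 2.89, 2.90 and 2.84 in round spermatids. In wild type both were high in the spermatogonia arrays and pre-leptotene array 1 and below log2 4 in the other pre-leptotene arrays. Il1b, the inflammatory cytokine interleukin-1 beta, had log2 levels of 3.10 in Spo11-/- spermatogonia, against 8.31, 6.84, 6.34 and 9.05 in the wild-type arrays. Csf1r, the receptor for the macrophage growth factor CSF1, had log2 levels of 2.43 in Spo11-/- spermatogonia, against 9.53, 6.86, 5.52 and 7.84 in the wild-type arrays, and 8.68, 2.42 and 2.38 in wild-type pre-leptotene. Pre-leptotene array 1 was thus far from the other 2 for Csf1r. Tyrobp, a signalling adaptor of myeloid cells, had log2 levels of 2.37 in Spo11-/- spermatogonia, against 7.95, 6.72, 5.82 and 7.36 in the wild-type arrays. Cd14, a co-receptor for bacterial lipopolysaccharide, had log2 levels of 2.36 in Spo11-/- spermatogonia, against 7.77, 6.74, 5.08 and 7.99 in the wild-type arrays. Array 3 was the dimmest for each of Il1b, Csf1r, Tyrobp and Cd14.

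Dcn and Col3a1 are on the peritubular and stromal list, and Tgfbi and Gsn, on no list, were placed with them after their values were seen. Dcn, the matrix proteoglycan decorin, had log2 levels of 2.79 in Spo11-/- spermatogonia, against 9.27, 10.68, 8.49 and 13.42 in the wild-type arrays. Array 4 exceeded the next brightest array by more than 2. Col3a1, a fibrillar collagen, had log2 levels of 3.27 in Spo11-/- spermatogonia, against 7.06, 7.56, 5.74 and 9.46 in the wild-type arrays. Tgfbi, a matrix protein induced by TGF-beta, had log2 levels of 3.0 in Spo11-/- spermatogonia, against 8.42, 7.37, 6.40 and 9.27 in the wild-type arrays. Gsn, the actin-severing protein gelsolin, had log2 levels of 5.85 in Spo11-/- spermatogonia, against 9.99, 10.15, 9.28 and 13.28 in the wild-type arrays. Its wild-type means were also high in later fractions, with 8.72 in leptotene/zygotene, 9.34 in mid-pachytene and 9.67 in diplotene, so its place among stromal genes is uncertain. In all 4 of these genes array 4 was the brightest and array 3 the dimmest, whereas array 4 was the dimmest for the Oaz3 group. Nr4a1, an immediate-early nuclear receptor, had log2 levels of 5.27 in spermatogonia, 10.55 in pre-leptotene and 7.07 in leptotene/zygotene of Spo11-/- mice. In wild type, Nr4a1 had 8.94, 9.09, 8.53 and 11.52 (log2) in spermatogonia, 8.36, 7.33 and 8.11 in pre-leptotene, 8.52, 7.95 and 8.52 in leptotene/zygotene, 6.54 in early pachytene, 8.32 and 8.29 in mid-pachytene, 5.58 in late pachytene, 5.54 and 5.35 in diplotene and 9.24, 8.26, 8.82 and 8.46 in round spermatids. Nr4a1 exceeded log2 4 in every array, and its lowest wild-type values were in late pachytene and diplotene.

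Prkcq, protein kinase C theta, met the dividing value of 2 through a Spo11-/- pre-leptotene difference of 2.78, but its wild-type course resembled that of the Oaz3 group. It had log2 levels of 4.07 in spermatogonia, 6.85 in pre-leptotene and 3.32 in leptotene/zygotene of Spo11-/- mice. In wild type, Prkcq had 10.43, 11.26, 8.34 and 8.58 (log2) in spermatogonia, 7.42, 7.64 and 6.87 in pre-leptotene, 7.63, 7.07 and 6.75 in leptotene/zygotene, 7.69 in early pachytene, 7.83 and 7.54 in mid-pachytene, 6.28 in late pachytene, 7.51 and 7.0 in diplotene and 10.62, 9.46, 9.18 and 8.83 in round spermatids. As in the Oaz3 group, spermatogonia arrays 1 and 2 exceeded arrays 3 and 4, the single Lyz2-group member for which that held. Counting over the 18, the brightest spermatogonia array was array 4 for 12, array 1 for 5 and array 2 for 1, and the dimmest was array 3 for 16.

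Some marker lists of other cell types moved with this group, and others did not. The sums below include the members on each list, and the rule used the spermatogonia and wild-type pre-leptotene arrays, so they are a description. The leukocyte list, of which 5 of 12 genes are members, reached log2 4 for 11 genes in the Spo11-/- pre-leptotene array and for 2 to 10 in the wild-type pre-leptotene arrays, and its summed intensity was 14.49 (log2) in the Spo11-/- array, against 11.40, 7.79 and 7.25 in the wild-type arrays. In spermatogonia its sum was 8.70 in the Spo11-/- array, against 12.51, 11.20, 10.74 and 12.87 in the wild-type arrays. The peritubular and stromal list, of which 2 of 10 genes are members, had sums of 12.23 in the Spo11-/- pre-leptotene array and 11.01, 9.72 and 9.43 in the wild-type ones, and of 7.59 in the Spo11-/- spermatogonia array and 10.29 to 14.10 in the wild-type ones. The T cell list had a median of 8.87 in the Spo11-/- pre-leptotene array, against 2.53 to 2.58 in the wild-type ones, and the Sertoli cell list 6.73, against 4.72 to 5.24. The endothelial list was not higher there, with 3.37 against 3.38 to 5.02, nor was the Leydig cell list, with 2.77 against 3.03 to 3.47. In spermatogonia the Sertoli cell list had a median of 5.30 in the Spo11-/- array, against 4.91 to 5.06 in the wild-type ones. No array value of these lists is 0, and their part in the result was not tested. Over the Lyz2 group itself, 9 of 18 genes were above every wild-type pre-leptotene array in the Spo11-/- pre-leptotene array (21.6% of all genes). That Spo11-/- array was used to draw the group, and the rule used the wild-type pre-leptotene mean, so nothing is read from this count.

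The rule did not use the leptotene/zygotene arrays of either genotype. It did choose the members for a low Spo11-/- level in spermatogonia, and the Oaz3 group was drawn with the Spo11-/- pre-leptotene array. A lower level in a further Spo11-/- array is therefore not independent of the selection, and the shares below are a description. With limma fitted to all 23 arrays, 25 of the 69 members were lower in Spo11-/- and none was higher, while 6.25% of 13216 genes tested were lower and 0.507% higher (Benjamini-Hochberg adjusted p below 0.05 and a log2 change of at least 1). All 69 members were tested. Of the 25, 24 belong to the Oaz3 group and 1, Prkcq, to the Lyz2 group. The single Spo11-/- array has no replicate, so the fit assumed that it varies like the wild-type groups. With the 4 leptotene/zygotene arrays alone, limma found 37 members lower and none higher, against 3.94% and 0.053% of 11319 genes.

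Gapdhs had log2 levels of 2.22 in the Spo11-/- array, against 10.21, 10.07 and 9.92 in wild type, a limma log2 change of -7.85 ± 0.84 (SE; adjusted p = 5.91e-05; bound -6.07). Gsg1 had log2 levels of 2.61 in the Spo11-/- array, against 10.31, 10.52 and 10.43 in wild type, a change of -7.81 ± 0.75 (SE; adjusted p = 2.00e-05; bound -6.42) in limma. 4933411K16Rik had log2 levels of 3.06 in the Spo11-/- array, against 9.99, 9.46 and 9.54 in wild type, a limma change of -6.61 ± 0.84 (SE; adjusted p = 0.000215; bound -5.66). In each of these the Spo11-/- array was under log2 4, so the log2 change is also given as a bound, with the Spo11-/- level set to that limit. Oaz3 had log2 levels of 4.17 in the Spo11-/- array, against 10.91, 10.07 and 9.68 in wild type, a limma change of -6.04 ± 0.89 (SE; adjusted p = 0.000624). By fitted limma change, which chose the 8 genes named here, the others were 4930571K23Rik with -5.90 ± 0.90 (SE; adjusted p = 0.000761; bound -5.08), 1700016H13Rik with -5.86 ± 0.83 (SE; adjusted p = 0.000498; bound -4.59), Tssk6 with -5.74 ± 0.99 (SE; adjusted p = 0.00186; bound -4.20) and Spata3 with -5.72 ± 1.18 (SE; adjusted p = 0.00653; bound -3.79). Their Spo11-/- levels were under log2 4, so no order is read from these changes. All 8 were chosen for the largest falls, so a Spo11-/- array below every wild-type array follows from that choice. For these 8 genes the Spo11-/- array lay below all 3 wild-type arrays, and the 8 stayed past the test under every alternative tried.

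The chromatin members were also lower, with limma log2 changes of -5.36 ± 1.16 (SE; adjusted p = 0.00861; bound -4.19) for H2al2a, -5.26 ± 1.35 (SE; adjusted p = 0.0258; bound -4.10) for H2bl1 and -5.03 ± 1.26 (SE; adjusted p = 0.0225; bound -4.54) for H2ap. Chaperone and kinase members that were lower in limma included Hspa1l with -5.66 ± 0.87 (SE; adjusted p = 0.00087; bound -4.55), Cabs1 with -5.52 ± 0.81 (SE; adjusted p = 0.000616; bound -4.81) and Dnajb8 with -4.14 ± 1.10 (SE; adjusted p = 0.0308; bound -2.87). Oxct2a with -4.83 ± 1.0 (SE; adjusted p = 0.00655; bound -3.39), Otub2 with -4.32 ± 0.92 (SE; adjusted p = 0.00822), Spata18 with -4.98 ± 0.97 (SE; adjusted p = 0.00444; bound -3.95), Fscn3 with -3.75 ± 1.03 (SE; adjusted p = 0.0376; bound -2.40) and Clmn with -3.99 ± 0.93 (SE; adjusted p = 0.0146; bound -3.77) passed the same limma test. The others past it were Cdrt4, 4930503B20Rik, 1700012A03Rik, 1700001C19Rik and 1700001K19Rik. Members that did not pass included Spem1 with a limma change of -4.11 ± 1.24 (SE; adjusted p = 0.0622; bound -2.86), Ubqlnl with -3.86 ± 1.18 (SE; adjusted p = 0.0656; bound -2.44), Lelp1 with -4.17 ± 1.29 (SE; adjusted p = 0.0684; bound -2.94), Akap1 with -2.35 ± 0.89 (SE; adjusted p = 0.16) and Lipe with -2.63 ± 0.84 (SE; adjusted p = 0.083; bound -2.48). Dydc2 did not pass either, with log2 levels of 3.80 in the Spo11-/- array, against 3.63, 4.36 and 3.95 in wild type, near the limit in both genotypes. Among those, Akap1 kept a signal in Spo11-/- cells.

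**Figure D4:**
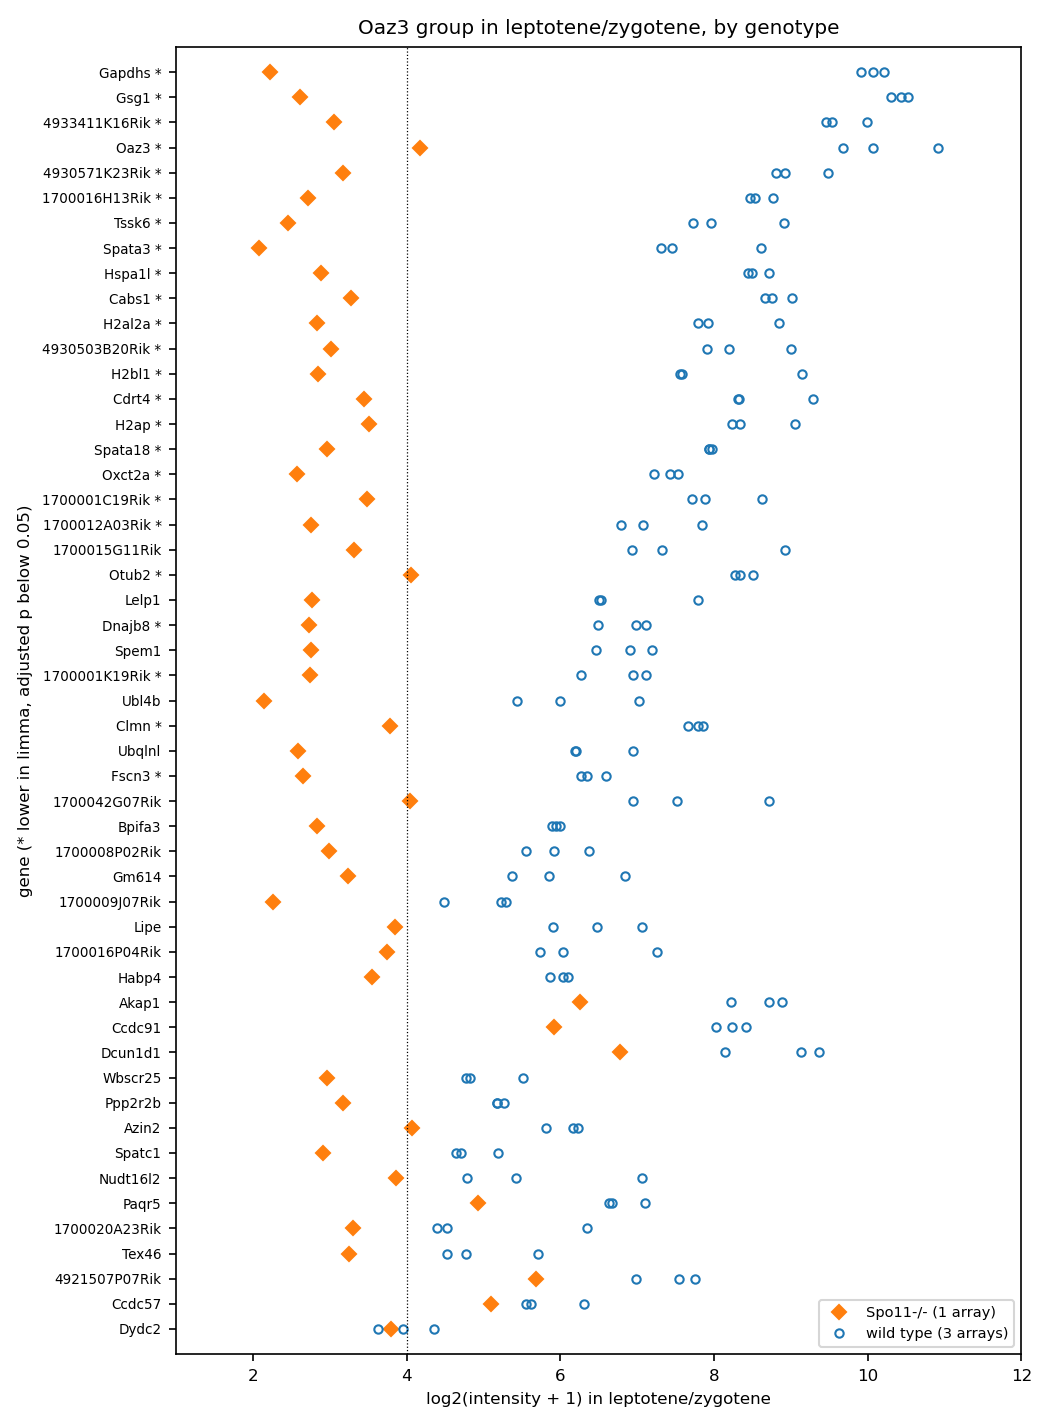
Rows are the 51 genes of the Oaz3 group, sorted by the log2 change between genotypes; diamonds are the single Spo11-/- leptotene/zygotene array, open circles the 3 wild-type arrays, the horizontal axis is log2(intensity + 1), and the dotted line marks log2 4. Asterisks mark the 24 genes lower in limma; for Gapdhs the Spo11-/- array read 2.22, against 9.92 to 10.21 in wild type.

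The median limma change over the 51 genes was -4.01, or -2.86 with the 41 genes below log2 4 in Spo11-/- set to that limit, against -0.04 over all genes tested. The 7 genes left out by name were all lower, with a median of -8.95, or -8.04 with bounds. Of the 163 tested genes of the spermatid and sperm function lists that are neither members nor left out, 87 were lower and none higher, among them 18 of 31 acrosome genes. In the Lyz2 group the median was -0.33, and Prkcq was lower by the limma test, with 3.32 in the Spo11-/- array, against 7.63, 7.07 and 6.75 in wild type and a change of -3.83 ± 0.89 (SE; adjusted p = 0.014; bound -3.15). None of 11 leukocyte markers and none of 15 spermatogonia markers passed the limma test, and 0 and 3 of them had an unadjusted p below 0.05. The leukocyte list was under the log2 4 limit in both genotypes, with medians of 2.79 in the Spo11-/- array and 2.77 to 3.26 in wild type. Its test could therefore hardly show a fall, and nothing is read from it. With bounds, the Lyz2-group median was -0.12. Stage markers differed in the same arrays. The late prophase list had a median of 5.56 in the Spo11-/- array, against 9.92 to 11.35 in wild type, and the round spermatid list 3.79, against 6.55 to 8.08. The spermatogonia list had 9.04, against 9.69 to 10.15, and the Sertoli cell list 6.72, against 5.52 to 5.95. Their part in the result was not tested.

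From leptotene/zygotene to mid-pachytene, none of the 69 members passed the limma test in either direction. Among all 13087 genes, 14.2% were higher and 15.2% lower in mid-pachytene. No member had an unadjusted p below 0.05 in limma, against 5705 of the 13087 genes. The log2 change was positive for 51 of the 51 Oaz3-group genes and for 6154 of all 13087. In the group it lay between 0.47 and 1.38 with a median of 0.99, against a median of -0.07 over all genes tested. The 51 genes moved together across arrays, so their signs are not separate readings. Gsg1 had log2 levels of 11.40 and 11.68 in mid-pachytene, against 10.31, 10.52 and 10.43 in leptotene/zygotene, a limma change of 1.12 ± 0.59 (SE; adjusted p = 0.156). Its 2 groups of arrays did not overlap. The fit took its spread from all wild-type arrays, including the spermatogonia arrays that differ by 2.74 to 5.30 for the Oaz3 group. The lack of calls is therefore not read as a lack of change. With the arrays of the 2 fractions alone, 10 members were higher and none lower, while 14.8% of 11612 genes were higher and 18.1% lower. Members below log2 4 in all of those arrays, such as Cd14 and Csf1r, were not tested in that fit, so nothing is read from this count. Of the 163 other genes of the function lists, 68 were higher and 3 lower, and the acrosome list had 23 of 31 higher with a median of 2.19. The 7 genes left out by name had none past the test and a median of 0.86.

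**Figure D5:**
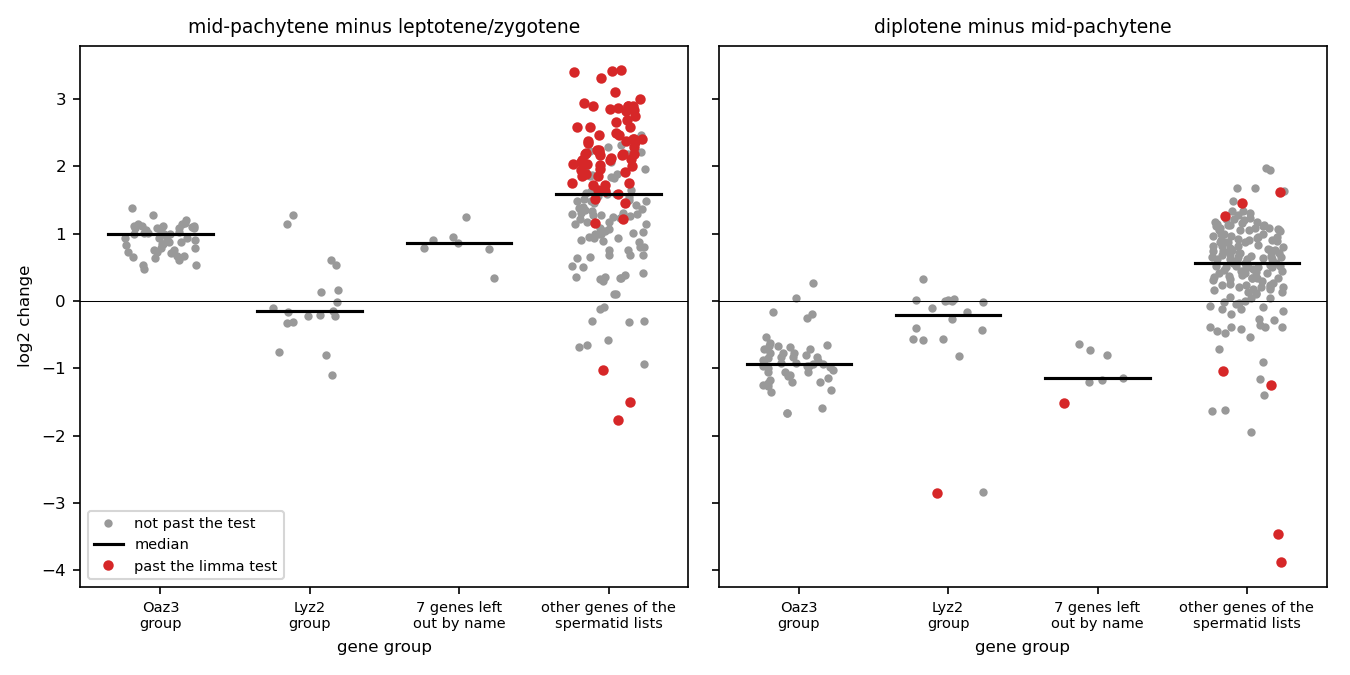
Points are limma log2 changes of single genes for mid-pachytene minus leptotene/zygotene (left) and diplotene minus mid-pachytene (right), for the Oaz3 group, the Lyz2 group, the 7 genes left out by name and the 163 other genes tested from the spermatid function lists; bars are medians and red points passed the test. The Oaz3 group has medians of 0.99 and -0.93 with no gene past the test, and 68 of the 163 other genes were higher in mid-pachytene. The spread in the fit includes the spermatogonia arrays, which differ widely for the Oaz3 group, so these outcomes are not compared.

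Between mid-pachytene and diplotene, 1 member, Nr4a1, was lower in diplotene and none was higher, while 6.98% of 13087 genes were higher and 14.5% lower. Nr4a1 had log2 levels of 5.54 and 5.35 in diplotene, against 8.32 and 8.29 in mid-pachytene, a limma change of -2.86 ± 0.69 (SE; adjusted p = 0.00717). The call was lost without diplotene array 2 (adjusted p = 0.0563 in limma) and without mid-pachytene array 1 (adjusted p = 0.0516 in limma). The log2 change was negative for 49 of the 51 Oaz3-group genes and for 6566 of all 13087. The medians were -0.93 for the group and -0.01 over all genes tested. None of the 51 had an unadjusted p below 0.05 in limma, against 4460 of the 13087 genes. The spread in the fit again included the spermatogonia arrays, so the lack of calls is not read as a lack of change. Gapdhs had log2 levels of 9.94 and 9.82 in diplotene, against 11.11 and 11.19 in mid-pachytene, a limma change of -1.27 ± 0.73 (SE; adjusted p = 0.238). The groups did not overlap, but the change did not pass the test. The 7 genes left out by name had a median of -1.15 with 1 lower, and the 163 other function-list genes had a median of 0.57 with 3 higher and 4 lower. Both comparisons share the mid-pachytene arrays.

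Other probe sets of the members gave mixed readings. The array carries 53 further probe sets for 24 of the 69 genes. Of these, 33 probe sets from 19 genes rose above log2 4 in at least 1 spermatogonia array, and 11 of the 33, from 7 genes, met all 3 thresholds. The Spo11-/- threshold was met by 11, the pre-leptotene threshold by 17 and the round spermatid threshold by 25. In another probe set, Akap1 had log2 levels of 8.15 in wild-type spermatogonia, 8.39 in round spermatids and 7.72 in Spo11-/- spermatogonia. The same levels were 6.55, 9.13 and 4.71 for Otub2 and 5.48, 7.85 and 5.62 for Dcun1d1. For Oaz3 they were 12.74, 12.19 and 2.61, with all 3 thresholds met. The courses given above for Akap1, Otub2 and Dcun1d1 therefore hold for the probe set used.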

How the data were processed

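RNA of sorted testis cells was hybridised to 23 Affymetrix arrays, per the labels as biotin-labelled cRNA made with oligo-dT primers from RNA isolated with RNAqueous Micro kits. The deposited values are linear intensities per probe set, normalised by GCRMA per the submitters' processing notes, with no version given. GCRMA corrects background by probe sequence and equalises the arrays' distributions, and levels below log2 4 were treated here as below a clear signal. Of 45037 probe sets, 34945 have 1 gene symbol in the platform annotation, 932 have several and 9160 are not listed, and 34741 were joined to RefSeq (GRCm38.p6), giving 18193 genes.

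From these, log2(intensity + 1) was computed (Python 3.11.15, pandas 2.3.3, numpy 2.4.6), and the selection rule was applied to 1 probe set per gene. The members, the gene lists and the genes named were chosen with earlier results of these data known, and the division into the Oaz3 and Lyz2 groups was made after their values were seen. Genes named are function-list members, the brightest, those with the largest or smallest differences from round spermatids, the strongest in each tested comparison, those nearest a threshold, the widest and narrowest over spermatogonia arrays, members on other cell type lists and the 7 genes left out.

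Tests used limma 3.58.1 (R 4.3.3) with a mean per group, on genes at log2 4 or more in at least 2 arrays, adjusted by Benjamini-Hochberg over all genes tested; a call needed an adjusted p below 0.05 and a log2 change of at least 1. Mid-pachytene against leptotene/zygotene and diplotene against mid-pachytene were fitted on all 20 wild-type arrays, and Spo11-/- against wild-type leptotene/zygotene on all 23. The procedure was tested on simulated data. For mid-pachytene against leptotene/zygotene it recovered 31 of 100 simulated log2 changes of 1.5 and 93 of 100 of 3. For diplotene against mid-pachytene it recovered 28 and 87. Smaller changes could thus easily be missed. Where the Spo11-/- leptotene/zygotene array read below log2 4, the change with that level set to 4 is given beside the fitted one as a bound. Alternatives were other normalisations, filters, probe set choices, variance settings and leaving out each array. Values of wild-type and Spo11-/- spermatogonia, pre-leptotene and round spermatids chose the members and were not tested against each other.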

Additional observations from a re-analysis of the deposited data

Results flagged for a closer look

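Over the 69 members, 138 groups of 4 arrays (wild-type spermatogonia and round spermatids) were searched for an array far from the other 3, and 7 were found, where chance gives about 1 in 20. In round spermatid array 1, 1700015G11Rik read 11.14 (log2) with 9.53 to 9.68 in the others, and 4930571K23Rik read 12.33 with 11.10 to 11.29. The same array was high for 3 leukocyte-type genes, with 4.90 for Cd74 (others 3.93 to 3.99), 4.66 for Csf1r (others 2.46 to 2.56) and 4.38 for H2-Aa (others 3.07 to 3.27). Cabs1 was low in round spermatid array 2, at 10.56 with 10.98 to 11.04 in the others. Lyz1 was high in spermatogonia array 4, at 11.38 with 10.24 to 10.39 in the others.

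For 3 members of the Lyz2 group the Spo11-/- array lay on opposite sides of all wild-type arrays in 2 fractions. Dcn differed by 5.39 (log2, Spo11-/- minus wild-type mean) in pre-leptotene and by -1.24 in leptotene/zygotene. Gsn differed by 2.67 and -1.97, and Nr4a1 by 2.61 and -1.26, in the same fractions. With 1 Spo11-/- array per fraction, the difference between fractions was not tested.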

How the results depend on the processing

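The rule kept 69 genes, and 72 with median centring, 71 with quantile normalisation, 70 without the added 1 and 48 with the mean of a gene's probe sets. Leaving out 1 array gave 42 to 120 genes, with 42 without spermatogonia array 2 (24 of the 51 Oaz3-group genes), 104 without array 3 and 120 without array 4. For mid-pachytene against leptotene/zygotene the members past the limma test numbered 0, but 10 with the arrays of the 2 groups only, and the genes past it numbered 3839, with 1466 to 3820 when 1 array was left out (1466 without mid-pachytene array 2). For diplotene against mid-pachytene the genes numbered 2812, with 1108 in the 2 groups only and 1341 to 2580 with 1 array left out (1416 without diplotene array 2, 1341 without mid-pachytene array 1), and the members 0 to 1. For Spo11-/- against wild-type leptotene/zygotene the genes numbered 893, with 452 in the 2 groups only and 648 to 926 with 1 array left out, and the members 25, with 20 to 37. No result changed direction. The cause of these shifts was not tested.

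In a fit with a replicate block, 4481 genes and 0 members passed for mid-pachytene against leptotene/zygotene, and 3410 genes and 1 member for diplotene against mid-pachytene. The arrays share only a number, and deviations of same-numbered arrays correlated across genes at 0.56 and 0.29 in the first comparison and 0.63 in the second. Mid-pachytene array 2 and leptotene/zygotene array 3, with different numbers, correlated at 0.30, and in a group of 2 arrays the deviations are mirror images, so these values do not show pairing. For Spo11-/- against wild-type leptotene/zygotene, no paired analysis was possible because the Spo11-/- group has 1 array. Levels below log2 4 were not read as differing.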
